A study of Danio rerio with 25 samples.

Results

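The comparison described here set BFP-gate cells of cryoinjured adult zebrafish hearts against BFP-gate cells of uninjured hearts, gene by gene. Its members were 7 of the 25 libraries of the series, chosen by the labels: 3 libraries after cryoinjury (CI_BFP) and 4 without injury (UN_BFP). Each library was made from a tube of 20 sorted cells of dissociated hearts, which the labels call cardiomyocytes. All groups shared a line with a pair of transgenes, sox10:CreERT2, an inducible Cre recombinase under sox10 sequences, and vmhcl:loxP-tagBFP-loxP-mCherry-NTR, a reporter under ventricular myosin (vmhcl) sequences. The reporter gives blue tagBFP until the Cre removes the tagBFP cassette and then red mCherry with nitroreductase. A blue cell is thus one whose reporter was not recombined, whether it never held active Cre or recombination did not take place in it. The other 18 libraries came from the red gate, 12 after cryoinjury (CI_RFP) and 6 without injury (UN_RFP). They entered the model for its estimate of the spread and for a test of whether the injury effect differed between the gates. Nothing used here gives the time after injury, the age of the fish or the Cre induction, and no label ties a library to an animal, a sort or a day. The p-values therefore measure only how these tubes vary, which may be technical.

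No single gene passed the test between the groups. As a sum, ribosomal protein genes stood lower in every CI_BFP library than in any UN_BFP library. Of 91 genes of nuclear respiratory chain subunits, 25 lay wholly below, where 1.94% of all genes and 6.24% of those read in all 7 libraries did. The sum of these respiratory chain genes overlapped between the groups. Leukocyte, lysosome and cell cycle genes mostly had positive folds. In the leukocyte and lysosome sums, library 4 of UN_BFP lay among the CI_BFP libraries. Fibroblast and epicardium, growth factor and cardiac transcription genes mostly had negative folds. Among genes read in all 7 libraries, the cell cycle, growth factor and cardiac transcription lists were split nearly evenly between the signs. Sarcomere genes had no common direction.

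Zebrafish regrow heart muscle after cryoinjury, a freezing of the ventricle wall that leaves dead tissue and a transient scar. As general background, leukocytes enter the injured wall and clear debris, epicardial cells and fibroblasts lay down matrix, and cardiomyocytes at the wound border loosen their sarcomeres, return to embryonic gene programmes and divide. The gene groups below follow those roles: the cardiomyocyte and its contractile and electrical genes, its transcription factors and border zone genes, division and metabolism, protein synthesis, and the immune, stromal and vessel cells around it.

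Total counts were 8802372, 9107882 and 5691858 in CI_BFP and 10143812, 8495022, 9326342 and 8217692 in UN_BFP. Genes with at least 1 count numbered 14408, 8581 and 9738 in CI_BFP, against 10122, 8481, 6920 and 12740 in UN_BFP. The difference in detected genes did not pass an exact two-sided permutation test (p = 0.486, where 35 assignments allow no p under 0.0286), and totals, the share of the 50 most counted genes and the mitochondrially encoded share did not either (adjusted p = 0.648 to 0.771 over the 4 measures). Correlations of log2(CPM + 1) across genes lay between 0.652 and 0.699 within CI_BFP, between 0.53 and 0.597 within UN_BFP and between 0.479 and 0.752 across the groups, so a pair of libraries from different groups could be as alike as a pair from 1 group. Levels below are TMM-scaled CPM, counts relative to library size, and are given for the libraries in the order 1 to 3 of CI_BFP and 1 to 4 of UN_BFP. Reads carried no molecular identifiers.

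Some cardiomyocyte transcripts were present in all 7 libraries, beside transcripts of other cell types, but not every marker was. The 12 cardiomyocyte marker rows summed to 14565, 8320 and 5622 CPM in CI_BFP and 3851, 1171, 12651 and 14943 CPM in UN_BFP. MYL7, the regulatory myosin light chain of the heart, stood at 11354, 5169 and 3191 CPM in CI_BFP and 2548, 199.9, 8423 and 5353 CPM in UN_BFP. The groups overlapped, and UN_BFP 2 was the lowest library. TNNT2 (ENSDARG00000020610), cardiac troponin T, had 239, 347 and 568 CPM in CI_BFP and 672, 165, 642 and 951 CPM in UN_BFP. The groups overlapped here too. RYR2, the calcium release channel, had 0.381, 0 and 0 CPM in CI_BFP and 0, 0.194, 0 and 26.3 CPM in UN_BFP. Only UN_BFP 4 of the 7 libraries held more than 1 CPM of it.

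Markers of other cells were also read in every library. Summed over 11 rows, leukocyte markers stood at 1274, 3500.3 and 2207 CPM in CI_BFP and 0.814, 722, 447 and 2483 CPM in UN_BFP. UN_BFP 1 held nearly none, and UN_BFP 4 lay within the CI_BFP range. lyz, a granule enzyme of neutrophils, was at 0 in all 7. The 9 fibroblast and epicardium markers summed to 11229.7, 3504 and 877 CPM in CI_BFP and 5188, 2347, 931 and 5421 CPM in UN_BFP, with the highest and the lowest library both in CI_BFP. In UN_BFP 1 and UN_BFP 2 this sum was above that of the cardiomyocyte markers. Endothelial and endocardial markers (8 rows) summed to 669, 101 and 192 CPM in CI_BFP and 229.6, 378, 428 and 234 CPM in UN_BFP. Mural cell markers (4 rows) summed to 404, 19.2 and 41.1 CPM in CI_BFP and 1597, 311, 511 and 269 CPM in UN_BFP. The groups overlapped for both. The 5 erythrocyte rows summed to at most 7.14 CPM and the 4 thrombocyte rows to at most 17.9 CPM in any library, with alas2, itga2b, gp9 and mpl at 0 throughout. The 5 neural crest, glia and neuron rows summed to 3.72, 18.3 and 33 CPM in CI_BFP and 127, 0, 2.51 and 22.2 CPM in UN_BFP, with FOXD3 and ELAVL3 at 0 throughout. In pools of this kind, fewer cells of a type and less RNA per cell cannot be told apart, and the part of these other cells in the differences below was not tested.

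**Figure D1:**
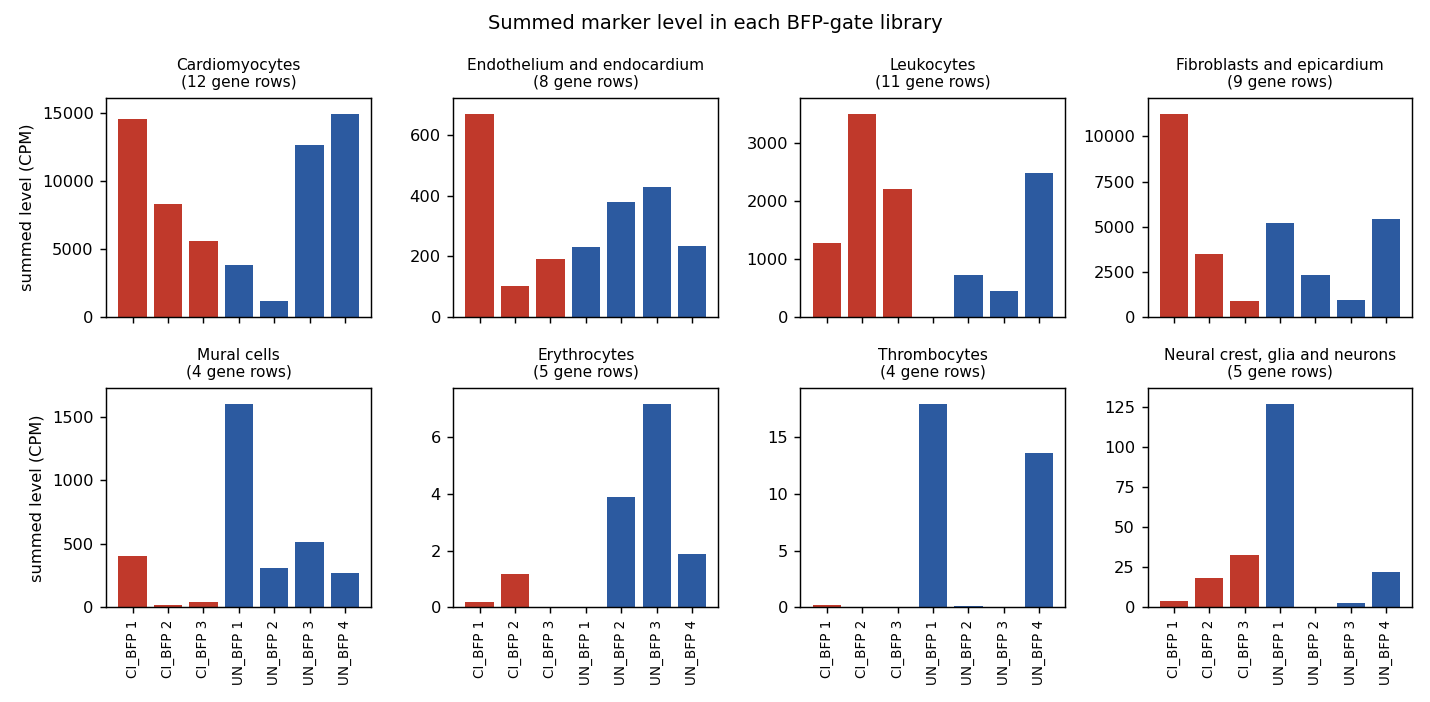
Summed level of marker genes (CPM, vertical axis from 0) in each of the 7 BFP-gate libraries (horizontal axis), in 1 panel for each cell type, with CI_BFP in red and UN_BFP in blue. Leukocyte markers run from 1274 to 3500 CPM in CI_BFP and from 0.814 to 2483 CPM in UN_BFP, and erythrocyte and thrombocyte markers stay under 18 CPM.

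Myosin heavy chains varied widely between tubes of 1 group. The row named MYH7, tied to vmhc, the ventricular myosin heavy chain, only by a synonym in RefSeq, stood at 243, 297 and 162 CPM in CI_BFP and 0.407, 464, 107 and 3278 CPM in UN_BFP. UN_BFP 4 was the highest of all, and without it the fitted log2 fold turned to 0.29 from -2.04. myh6 (ENSDARG00000090637), the atrial myosin heavy chain, was at 0, 0 and 2.21 CPM in CI_BFP and 92.4, 0, 0 and 0 CPM in UN_BFP, so that UN_BFP 1 held nearly all of it and the log2 fold of -4.96 turned to 5.68 without it. MYH6 (ENSDARG00000079564), a separate row whose role was not checked, stood at 16.7, 1.7 and 213 CPM in CI_BFP and 0, 0.485, 0.304 and 442 CPM in UN_BFP, with the highest library in UN_BFP and no direction that held across scalings. vmhcl, the gene whose sequences drive the reporter, matched no named row.

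No gene passed the edgeR quasi-likelihood test between CI_BFP and UN_BFP (0 of 14853 tested genes higher and 0 lower, smallest adjusted p = 0.51). At an unadjusted p under 0.05, 818 genes (5.51%) were on the higher side and 530 (3.57%) on the lower side. Alternative tools called some: voom 9 higher (0.0606%) and 2 lower (0.0135%), and DESeq2 208 higher (1.4%) and 263 lower (1.77%). The common biological coefficient of variation was 2.13, meaning that the level of a typical gene varied between tubes of a group by more than its own mean. Of the tested genes, 14363 were read in 1 or more of the 7 libraries. Every CI_BFP library lay above every UN_BFP library in 441 of them (3.07%) and below in 279 (1.94%). Folds were positive in 7402 (51.5%) and negative in 6961 (48.5%), and the median fitted log2 fold was 0.07, or 0.54 with the size factors of DESeq2. The genes below are described by these values and counts, and none of them was called by edgeR. Genes described because they lay wholly above or below within a list were, beyond the naming rule, chosen after their values were seen.

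The 12 genes of positive fold with the smallest p were taken from those read in at least 75% of the CI_BFP libraries, which means all 3, so their presence there was set by the choice. In UN_BFP, 11 of them were read in 0 of the 4 libraries. tpk2, a thiamine pyrophosphokinase, stood at 9.91, 24.5 and 13.4 CPM in CI_BFP and 0 CPM in every UN_BFP library, at least 248-fold higher (edgeR adjusted p = 0.51). The bound sets UN_BFP at 3 counts over its 4 libraries together. It takes no account of the spread between tubes, so here and below it is not a lower limit on the difference between the groups. SGSH, a lysosomal sulfatase that degrades heparan sulfate, had 38.2, 21.3 and 10.3 CPM in CI_BFP and 0 in UN_BFP, at least 363-fold higher. FLCN, folliculin, a regulator of nutrient signalling at the lysosome, had 32, 45.8 and 19.5 CPM in CI_BFP and 0 in UN_BFP, at least 506-fold higher (adjusted p = 0.51 by edgeR and 0.024 by voom). For these 3 genes, as for the rest of the 11, the groups did not overlap and each CI_BFP tube held at least 1 CPM.

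Lipid, nuclear and mitotic proteins were among the others. lipeb, a hormone-sensitive lipase that releases fatty acids from stored fat, stood at 12, 40.3 and 20.2 CPM in CI_BFP and 0 in UN_BFP (voom adjusted p = 0.024). NUP43, a nuclear pore subunit, had 34.6, 31.8 and 19.1 CPM in CI_BFP and 0 in UN_BFP (voom adjusted p = 0.0241). SMC4, a condensin subunit that packs chromosomes for mitosis, had 80.5, 3.07 and 10.3 CPM in CI_BFP and 0 in UN_BFP. CI_BFP 1 was far above the other 2 for SMC4, while the NUP43 values lay close together. haus7, a subunit of the augmin complex of the mitotic spindle, had 6.39, 26.6 and 21.7 CPM in CI_BFP and 0 in UN_BFP. ttbk2a, a tau tubulin kinase, had 20.8, 56.6 and 9.44 CPM in CI_BFP and 0 in UN_BFP (voom adjusted p = 0.0298). The Wnt receptor FZD9 (ENSDARG00000035185) was spread unevenly, at 3.05, 58.8 and 1.1 CPM in CI_BFP and 0 in UN_BFP. The remaining genes of the 12 were GFER, a sulfhydryl oxidase of mitochondria (15.9, 22.1 and 6.62 CPM in CI_BFP, 0 in UN_BFP), kcnab2a, a potassium channel beta subunit (9.91, 32.5 and 17.9 CPM in CI_BFP, 0 in UN_BFP), and RALY. RALY, an RNA-binding protein of the hnRNP family, was the 1 with a count in UN_BFP, at 27.6, 27.9 and 41.1 CPM in CI_BFP and 0.339, 0, 0 and 0 CPM in UN_BFP, 379.7-fold higher in the means (log2 8.28, SE 2.58, edgeR adjusted p = 0.51).

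**Figure D2:**
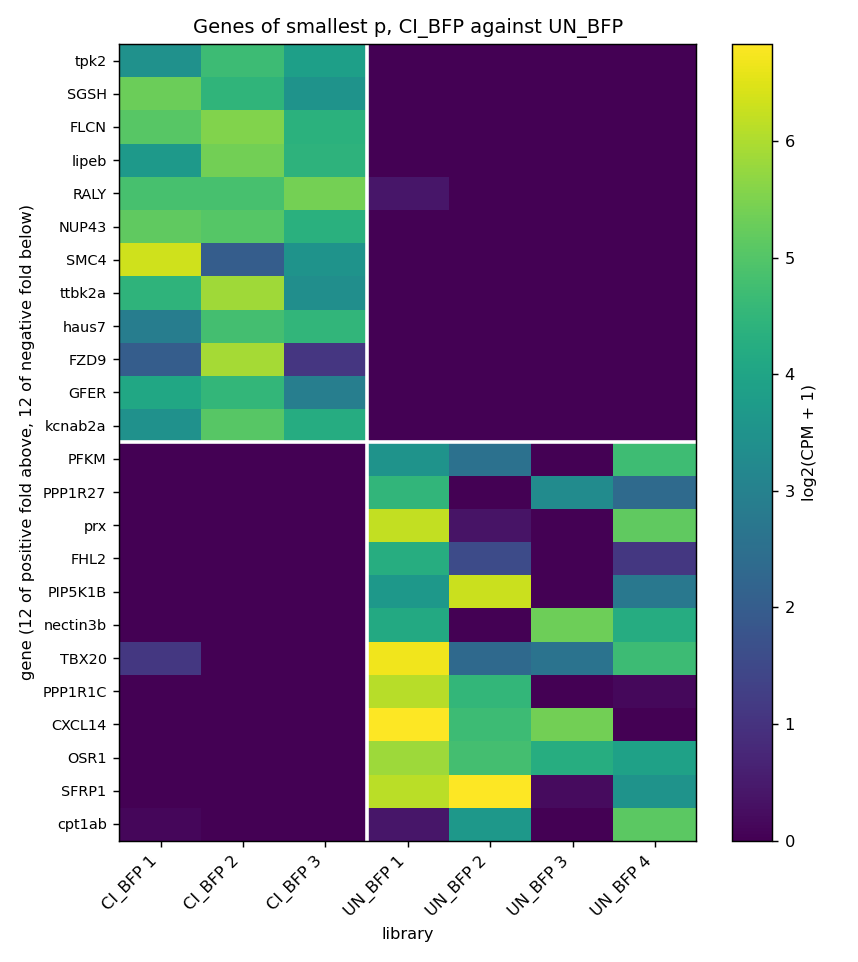
Level of the 12 genes of positive fold (upper rows) and the 12 of negative fold (lower rows) with the smallest p, as log2(CPM + 1) by colour, in the 3 CI_BFP libraries (left columns) and the 4 UN_BFP libraries (right columns). The upper rows are empty in UN_BFP apart from RALY in UN_BFP 1. The rows were chosen to be read in at least 75% of the higher group's libraries, which fills all 3 CI_BFP columns of the upper rows and allows 1 empty UN_BFP column in the lower rows.

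The 12 genes of negative fold with the smallest p were taken from those read in at least 3 of the 4 UN_BFP libraries. TBX20, a T-box factor that maintains cardiomyocyte identity, stood at 1.14, 0 and 0 CPM in CI_BFP and 102, 4.08, 5.02 and 24.9 CPM in UN_BFP, 89.3-fold lower in CI_BFP (log2 -6.41, SE 2.03, edgeR adjusted p = 0.51). All 4 UN_BFP libraries lay above all 3 CI_BFP libraries, although UN_BFP 1 held most of the level. OSR1, an odd-skipped zinc finger factor of mesoderm, had 0 CPM in every CI_BFP library and 55.4, 26.6, 18.2 and 13.9 CPM in UN_BFP, at least 267-fold lower in CI_BFP (adjusted p = 0.51 by edgeR and 0.0241 by voom). SFRP1 (ENSDARG00000057678), a secreted modulator of Wnt signalling, had 0 CPM in every CI_BFP library and 69.1, 113, 0.152 and 10.3 CPM in UN_BFP, at least 450.5-fold lower in CI_BFP. These 3 were the only ones of the 12 whose groups did not overlap.

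The other 9 had at least 1 UN_BFP library at or below a CI_BFP library. PFKM (ENSDARG00000060797), the muscle phosphofructokinase of glycolysis, had 0 CPM in CI_BFP and 10.4, 4.85, 0 and 25.3 CPM in UN_BFP. FHL2 (ENSDARG00000003991), a LIM-domain adaptor in muscle, had 0 CPM in CI_BFP and 18.2, 1.94, 0 and 1.16 CPM in UN_BFP. cpt1ab, which couples fatty acids to carnitine for entry into mitochondria, had 0.0953, 0 and 0 CPM in CI_BFP and 0.339, 11.5, 0 and 33.5 CPM in UN_BFP. In each of the 3, UN_BFP 3 was at 0. CXCL14, a chemokine, had 0 CPM in CI_BFP and 112, 24.7, 40.7 and 0 CPM in UN_BFP, where UN_BFP 4 was the empty library. PIP5K1B, a lipid kinase, had 0 CPM in CI_BFP and 11.5, 77, 0 and 5.7 CPM in UN_BFP, and nectin3b, a cell adhesion protein, had 0 CPM in CI_BFP and 16.7, 0, 38.7 and 17.9 CPM in UN_BFP. The protein phosphatase 1 regulators PPP1R27 (21.6, 0, 8.89 and 4.18 CPM in UN_BFP) and PPP1R1C (67.3, 22, 0 and 0.116 CPM in UN_BFP) and the gene prx (73, 0.291, 0 and 34.9 CPM in UN_BFP) were also at 0 in all CI_BFP libraries. Each of these 9 had an edgeR adjusted p of 0.51.

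Presence in all tubes of 1 group and none of the other was uncommon. A count in all 3 CI_BFP libraries and in no UN_BFP library was found for 65 of the 14363 genes (0.453%), and a count in all 4 UN_BFP libraries and in no CI_BFP library for 16 (0.111%). These shares cannot be compared directly, since the groups differ in size and the libraries in detected genes. Why they differ was not tested. The 16 included OSR1, SFRP1 (ENSDARG00000057678), PIGM, DUSP4 and TSPAN12, named after their values were seen. PIGM, a mannosyltransferase of the glycosylphosphatidylinositol anchor, had 0 CPM in CI_BFP and 26, 38.1, 5.47 and 14.2 CPM in UN_BFP (adjusted p = 0.51 by edgeR and 0.024 by voom). DUSP4, a phosphatase of MAP kinases, had 0 CPM in CI_BFP and 1.97, 28.8, 17 and 5.23 CPM in UN_BFP. The voom calls not named so far were all of positive fold. They were kntc1, a kinetochore protein (18.6, 4.03 and 13.2 CPM in CI_BFP, 0 in UN_BFP), TYW3, a tRNA-modifying enzyme (8.87, 16.8 and 23.7 CPM in CI_BFP, 0 in UN_BFP), AZIN1 (ENSDARG00000052789), an antizyme inhibitor of polyamine metabolism (3.15, 19.7 and 30.4 CPM in CI_BFP, 0 in UN_BFP), ADAM11, a disintegrin family member (3.91, 30.8 and 9.68 CPM in CI_BFP, 0 in UN_BFP), and tppp (ENSDARG00000104399), a tubulin polymerisation protein (85.9, 7.2 and 303 CPM in CI_BFP, 0.136, 0, 0 and 0 CPM in UN_BFP).

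Contractile genes did not separate the groups. Of 61 sarcomere genes read in BFP-gate libraries, 26 had a positive and 35 a negative fold. Of the 61, 0 lay wholly above and 0 wholly below, where 3.07% and 1.94% of all genes did. An unadjusted p under 0.05 by edgeR was found for 1 of positive and 6 of negative fold, against 5.51% and 3.57% of all genes tested. DESeq2 called 1 of positive and 2 of negative fold, against 1.4% and 1.77% of all genes tested. The median log2 fold of the list was -0.22, or -0.29 relative to the median of all genes. This relative value ran from -0.77 to 0.0054 over 16 alternative settings. FHL2 (ENSDARG00000042018), a second row of that name, stood at 7.24, 0 and 0 CPM in CI_BFP and 193, 5.63, 29.5 and 35.6 CPM in UN_BFP. CI_BFP 1 lay above UN_BFP 2, so the groups overlapped. myh7ba, a slow-type myosin heavy chain, stood at 12.9, 0 and 0 CPM in CI_BFP and 77.2, 0.485, 13 and 43.5 CPM in UN_BFP, also overlapping. Of 40 calcium and excitation genes, 21 had a positive and 19 a negative fold, with 15 positive without CI_BFP 1 and 27 without UN_BFP 4. CASQ2, cardiac calsequestrin, the calcium store protein, was the 1 that lay wholly below, at 16.8, 18 and 26.8 CPM in CI_BFP and 34.1, 39.2, 64.8 and 117 CPM in UN_BFP (edgeR adjusted p = 1). That was 2.5% of the list, near the 1.94% of all genes.

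Cardiac transcription factors had more negative than positive folds. Of 40 factors, 26 had a negative fold, with a median log2 fold of -0.73, or -0.80 relative to all genes (-1.30 to -0.41 over the settings). Of the 13 with a count in all 7 libraries, 6 had a positive and 7 a negative fold (median -0.14), and 0 lay wholly below. Over all 40, 3 lay wholly below, where 1.94% of all genes did. The 3 were TBX20, HEY2 and SOX11 (ENSDARG00000077811). HEY2, a Notch target and ventricular repressor, stood at 3.91, 0 and 0 CPM in CI_BFP and 21.4, 23.5, 85.7 and 6.28 CPM in UN_BFP. SOX11 (ENSDARG00000077811), a SoxC factor of embryonic tissue, stood at 17.2, 0 and 13.1 CPM in CI_BFP and 44.1, 19.2, 50.1 and 556 CPM in UN_BFP, where UN_BFP 4 was the highest. TBX5, a T-box factor of heart and limb, was at 0 in CI_BFP and at 0, 0, 2.58 and 5.35 CPM in UN_BFP. zfpm2b, a GATA cofactor of the FOG family, was at 0 in CI_BFP and at 35.4, 7.18, 0 and 5.93 CPM in UN_BFP.

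Several heart factors overlapped between the groups. HAND2, a basic helix-loop-helix factor, stood at 83.9, 14.1 and 64.7 CPM in CI_BFP and 184, 239, 65.7 and 5.7 CPM in UN_BFP, where UN_BFP 4 was the lowest of all. NKX2-5, a homeodomain factor, stood at 11.1, 0 and 15.3 CPM in CI_BFP and 11, 0, 46.7 and 4.53 CPM in UN_BFP, and its log2 fold of -0.82 turned to 0.76 without UN_BFP 3. gata4, a zinc finger factor, stood at 1.53, 9.96 and 0 CPM in CI_BFP and 4.68, 2.91, 0 and 7.44 CPM in UN_BFP. SOX10, the gene whose sequences drive the Cre, was at 0 in all 3 CI_BFP libraries and at 16.5, 0, 0 and 1.16 CPM in UN_BFP. Neural crest genes were sparse. In the neural crest, glia and pigment list (11 genes, 6 of positive fold, and 4 without CI_BFP 1), EDNRA, an endothelin receptor, stood at 109, 0.53 and 36.4 CPM in CI_BFP and 10.2, 1.84, 5.93 and 0.116 CPM in UN_BFP, and SOX9 (ENSDARG00000003293), a SoxE factor, at 1.24, 0 and 0.735 CPM in CI_BFP and 47.7, 39.2, 0 and 0.93 CPM in UN_BFP. MITF (ENSDARG00000037833), a factor of pigment cells, stood at 0.0953, 0.848 and 28.3 CPM in CI_BFP and 0, 0, 0 and 8.14 CPM in UN_BFP, and its positive fold turned to -2.02 without CI_BFP 3.

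The dedifferentiation and border zone list held some of the most abundant genes that lay apart. HSPB1, a small heat shock protein that binds actin and desmin filaments, stood at 1588, 1219 and 790 CPM in CI_BFP and 8328, 3115, 6127 and 5694 CPM in UN_BFP. All UN_BFP libraries were above all CI_BFP libraries, 4.85-fold lower in CI_BFP in the means (log2 -2.28, SE 1.01, edgeR adjusted p = 0.51). MYC (ENSDARG00000007241), a growth factor-responsive transcription factor, stood at 382, 150.4 and 49.1 CPM in CI_BFP and 1924, 447, 695 and 634 CPM in UN_BFP, again with no overlap (4.77-fold lower in CI_BFP, edgeR adjusted p = 0.703). TAGLN (ENSDARG00000033466), transgelin, an actin-binding protein of smooth muscle, was also wholly below, at 228, 277 and 269.9 CPM in CI_BFP and 568, 586, 375 and 500.1 CPM in UN_BFP. CNN2, calponin 2, lay wholly above, at 123, 193 and 137 CPM in CI_BFP and 87.2, 68.9, 104 and 98.6 CPM in UN_BFP. Over the 59 genes, 36 had a negative fold, with a median of -0.52 (log2), while 29 folds were positive with DESeq2. The 31 genes with a count in all 7 libraries had 15 positive and 16 negative folds. Of the 59, 3 lay wholly below and 1 above, where 1.94% and 3.07% of all genes did. The natriuretic peptide genes overlapped. nppa stood at 12.1, 37.4 and 14.8 CPM in CI_BFP and 28.8, 2.91, 65.3 and 80.7 CPM in UN_BFP. nppb stood at 21, 3.28 and 0 CPM in CI_BFP and 0, 18, 13.1 and 317 CPM in UN_BFP, with UN_BFP 4 far above the rest. FLNC (ENSDARG00000018566), filamin C of the Z-disc, stood at 1.43, 0 and 19.4 CPM in CI_BFP and 16, 18.7, 0.076 and 297 CPM in UN_BFP, likewise.

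Cell cycle genes had a median fold of 1.49 (log2), or 1.42 relative to all genes. Of 65 genes, 50 had a positive fold. The list took 0.187, 0.0563 and 0.252 percent of counts in CI_BFP and 0.118, 0.0942, 0.0564 and 0.052 percent in UN_BFP, overlapping through CI_BFP 2 alone. An unadjusted p under 0.05 was found for 17 of positive and 2 of negative fold, against 5.51% and 3.57% of all genes tested. DESeq2 called 2 of positive and 2 of negative fold, against 1.4% and 1.77% of all genes tested. SMC4, PRIM1, FEN1 and MCM4 lay wholly above, or 4 of 65 where 3.07% of all genes did, and 0 lay below. PRIM1, the DNA primase subunit, stood at 8.1, 14.1 and 15.7 CPM in CI_BFP and 0.0678, 0, 0 and 0 CPM in UN_BFP (edgeR adjusted p = 0.51). FEN1, the flap endonuclease of lagging strand synthesis, stood at 31.2, 24.3 and 19.1 CPM in CI_BFP and 0, 0, 0 and 3.6 CPM in UN_BFP. MCM4, a replicative helicase subunit, stood at 19.9, 13.5 and 72.4 CPM in CI_BFP and 0, 0, 0 and 4.77 CPM in UN_BFP. UN_BFP 4 held all UN_BFP reads of both.

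Other replication genes overlapped through CI_BFP 2. MCM2, a helicase subunit, stood at 12.5, 0 and 123 CPM in CI_BFP and 0 in UN_BFP. MCM5, of the same helicase, stood at 24.9, 0 and 150.5 CPM in CI_BFP and 0, 0, 0 and 0.232 CPM in UN_BFP. PCNA, the sliding clamp of DNA polymerase, stood at 180, 70.0 and 263 CPM in CI_BFP and 80.9, 70.2, 48.8 and 51 CPM in UN_BFP, where CI_BFP 2 lay below UN_BFP 1. Genes of mitosis were sparse. mki67, a marker of cycling cells, stood at 16.6, 0 and 0 CPM in CI_BFP and 0, 0, 0 and 3.95 CPM in UN_BFP, CDK1, the mitotic kinase, at 4.77, 0 and 0 CPM in CI_BFP and 0 in UN_BFP, and AURKB, a kinase of chromosome segregation, at 1.33, 0.106 and 22.3 CPM in CI_BFP and 0, 0, 0 and 0.232 CPM in UN_BFP. MCM2, MCM5, PCNA, mki67 and CDK1 were named after their values were seen. The number of the list's genes with a count was 53, 26 and 47 in CI_BFP and 31, 16, 14 and 34 in UN_BFP, and its order followed that of all detected genes except for CI_BFP 3. Only 7 of its genes had a count in all 7 libraries, with a median log2 fold of 0.33. Without CI_BFP 3 the median of the list was 0.74. Under a filter of at least 5 CPM in at least 3 libraries the relative median was 0.58, and without UN_BFP 1 it was 2.47.

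**Figure D3:**
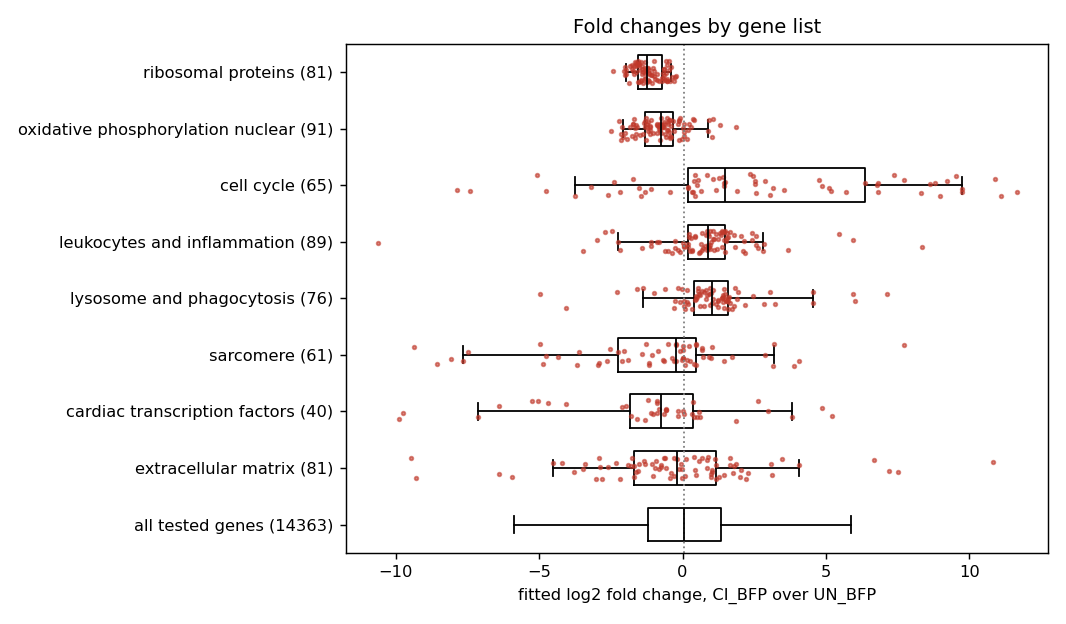
Fitted log2 fold change of CI_BFP over UN_BFP (horizontal axis) for 8 gene lists and for all genes read in BFP-gate libraries. Rows are the lists, with the number of genes, and each point is a gene. Boxes span the quartiles with the median line, and whiskers extend beyond the quartiles on both sides. Ribosomal proteins form a narrow cloud wholly left of 0 with a median of -1.25, while cell cycle genes spread to the right with a median of 1.49.

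Glycolysis genes leaned higher. Of 40 genes, 29 had a positive fold, with a median of 0.49 (log2) and 0.42 relative to all genes (0.24 to 0.84 over the settings). Of the 40, 5 lay wholly above and 0 wholly below, where 3.07% and 1.94% of all genes did. The genes of small p did not share this lean. An unadjusted p under 0.05 by edgeR was found for 1 of positive and 2 of negative fold, against 5.51% and 3.57% of all genes tested. DESeq2 called 0 of positive and 3 of negative fold, against 1.4% and 1.77% of all genes tested. PKM (ENSDARG00000099730), pyruvate kinase, stood at 1019, 1406 and 982 CPM in CI_BFP and 332, 409, 45.1 and 919.7 CPM in UN_BFP, 2.66-fold higher in the means (edgeR adjusted p = 1). GPI (ENSDARG00000012987), glucose phosphate isomerase, stood at 692, 317 and 419 CPM in CI_BFP and 181, 204, 117 and 241 CPM in UN_BFP. TPI1 (ENSDARG00000040988), triose phosphate isomerase, PFKP (ENSDARG00000028000), a phosphofructokinase, and SLC16A3 (ENSDARG00000045051), a lactate transporter, were the others wholly above. PFKM (ENSDARG00000060797), described above, was at 0 in CI_BFP, against the direction of the list.

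Fatty acid oxidation genes were mixed, with 19 of positive and 26 of negative fold among 45 and 27 positive with DESeq2. HADHA, a subunit of the mitochondrial trifunctional protein, lay wholly above, at 64.3, 51.6 and 37.7 CPM in CI_BFP and 0.542, 1.07, 0 and 20.0 CPM in UN_BFP (log2 3.25, SE 1.62, edgeR adjusted p = 0.54). ACADM, medium-chain acyl-CoA dehydrogenase, lay wholly below, at 72.7, 38.6 and 51.8 CPM in CI_BFP and 121, 148, 323 and 114 CPM in UN_BFP (edgeR adjusted p = 1). Each was 2.22% of the list, where 3.07% of all genes lay wholly above and 1.94% wholly below.

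Ribosomal proteins were the only list in which all folds had 1 sign. All 81 had a negative fold, and 63 lay wholly below, where 1.94% of all genes did. Among the 3092 genes with a count in all 7 libraries, 6.24% lay wholly below and 2.46% wholly above, and 80 ribosomal protein genes were among these 3092. The median log2 fold was -1.25, or -1.32 relative to all genes (-1.80 to -0.93 over the settings, with 0 to 7 positive folds). The list took 4.91, 3.44 and 5.48 percent of counts in CI_BFP and 11.7, 8.51, 9 and 5.91 percent in UN_BFP. All 4 UN_BFP libraries were above all 3 CI_BFP libraries, UN_BFP 4 by the least. None was near the threshold of the test, the smallest edgeR adjusted p being 0.724. RPS28, of the small subunit, stood at 71.4, 35.6 and 38.1 CPM in CI_BFP and 155, 529.5, 200 and 142 CPM in UN_BFP (5.31-fold lower in CI_BFP). RPL35, of the large subunit, stood at 210.1, 153 and 161 CPM in CI_BFP and 662, 1060.2, 539 and 556 CPM in UN_BFP (4.03-fold lower in CI_BFP). RPL36 stood at 235, 139 and 118 CPM in CI_BFP and 560.1, 1183, 309.6 and 508 CPM in UN_BFP. RPL36 was like them, with UN_BFP 2 the highest library of all 3. RPL3, an abundant member chosen after its values were seen, lay below by a narrow margin, at 2636, 2194 and 2563 CPM in CI_BFP and 4105, 3036, 3721 and 2658 CPM in UN_BFP.

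Nuclear subunits of the respiratory chain leaned the same way. Of 91 genes, 75 had a negative fold and 25 lay wholly below, with a median of -0.75 (log2) and -0.82 relative to all genes (-1.31 to -0.45 over the settings). Of the 87 read in all 7 libraries, 25 lay wholly below, against 6.24% of all genes so read. COX5B (ENSDARG00000068738), a cytochrome oxidase subunit, stood at 20.2, 13.1 and 8.21 CPM in CI_BFP and 54.4, 21.4, 130 and 103 CPM in UN_BFP (log2 -2.48, SE 1.5, edgeR adjusted p = 0.776). ATP5MG, a small membrane subunit of ATP synthase, stood at 55.8, 56.7 and 31.7 CPM in CI_BFP and 97, 326, 210.4 and 94.4 CPM in UN_BFP. COX6A1 (ENSDARG00000054588), also of cytochrome oxidase, stood at 93.1, 53.8 and 40.8 CPM in CI_BFP and 146, 247, 188 and 253 CPM in UN_BFP. All 3 lay wholly below. As a sum the list overlapped, at 1.09, 0.66 and 1.13 percent of counts in CI_BFP and 1.25, 1.07, 2.03 and 1.04 percent in UN_BFP.

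The 13 proteins encoded in mitochondrial DNA overlapped for all but 1 gene, and 11 had a negative fold (median -0.69). Relative to all genes the median was -0.76, but 0.07 without CI_BFP 1 and -1.45 without CI_BFP 2, and with DESeq2 6 of the 13 folds were positive. MT-ND3 of complex I lay wholly below, at 21.9, 44.8 and 32.5 CPM in CI_BFP and 65.6, 247, 76.5 and 47.2 CPM in UN_BFP. That was 7.69% of the list, where 6.24% of all genes read in all 7 libraries lay so. MT-CO2, a subunit of cytochrome oxidase, stood at 3665, 15604 and 5533 CPM in CI_BFP and 6018, 20339.7, 19468 and 7629 CPM in UN_BFP. MT-CO1 and MT-CO3 encode the other mitochondrial subunits of that enzyme. MT-CO1 stood at 5907, 15499 and 6135 CPM in CI_BFP and 4613, 12863, 10896 and 7948 CPM in UN_BFP, and MT-CO3 at 3438, 20760 and 6457 CPM in CI_BFP and 6864, 20389, 19694 and 8763 CPM in UN_BFP. The direction of MT-CO1 turned with TMMwsp scaling and that of MT-CO3 with the size factors of DESeq2. CI_BFP 2, UN_BFP 2 and UN_BFP 3 were the high libraries for all 3.

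**Figure D4:**
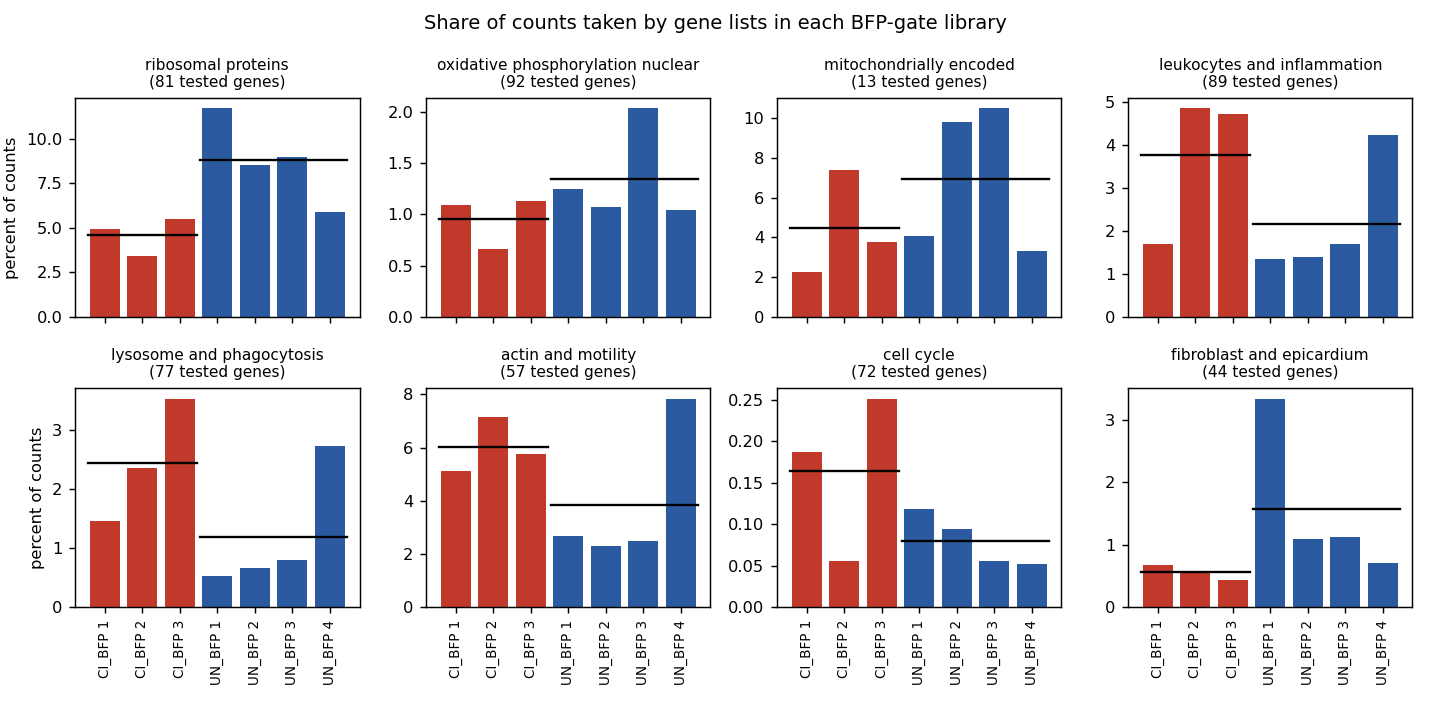
Percent of counts taken by the tested genes of 8 lists (vertical axes from 0) in each BFP-gate library (horizontal axis), with CI_BFP bars in red at the left, UN_BFP bars in blue at the right and a black line at each group's mean. Ribosomal proteins average 4.61% in CI_BFP and 8.78% in UN_BFP with no overlap, whereas in the leukocyte, lysosome and actin panels UN_BFP 4 lies among or above the CI_BFP bars.

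Leukocyte and inflammation genes mostly had positive folds. Of 89 genes, 70 did, with a median of 0.90 (log2) and 0.83 relative to all genes (0.34 to 2.37 over the settings, the lowest without UN_BFP 1). Only csf1rb, lgals2a and cyba lay wholly above, 3.37% of the list and near the 3.07% of all genes. Their list took 1.71, 4.86 and 4.72 percent of counts in CI_BFP and 1.36, 1.39, 1.69 and 4.24 percent in UN_BFP. CI_BFP 1 lay just above the 3 low UN_BFP libraries, and UN_BFP 4 near the 2 high CI_BFP ones. The median gene of the list stood at 46.6, 137 and 87.9 CPM in CI_BFP and 0.0678, 19.1, 25.2 and 86.3 CPM in UN_BFP. Much of the list was thus near 0 in UN_BFP 1, which its share of counts does not show. csf1rb, a receptor of macrophage growth factor, stood at 6.67, 0.848 and 6.25 CPM in CI_BFP and 0 in UN_BFP. cyba, a subunit of the phagocyte oxidase, stood at 243, 292 and 313 CPM in CI_BFP and 5.36, 32.4, 153 and 242 CPM in UN_BFP. lgals2a, a galectin, stood at 171, 263 and 308 CPM in CI_BFP and 42.4, 13, 135 and 138 CPM in UN_BFP.

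General leukocyte genes overlapped, LCP1 and CORO1A through UN_BFP 4 alone. LCP1, L-plastin, an actin-bundling protein of leukocytes, stood at 491, 735 and 541 CPM in CI_BFP and 0.271, 200, 52.6 and 606 CPM in UN_BFP. CORO1A, coronin of leukocytes, stood at 329.6, 755 and 534 CPM in CI_BFP and 0.271, 103, 29 and 364 CPM in UN_BFP. cd74a, the invariant chain of antigen presentation, stood at 557, 7417 and 4053 CPM in CI_BFP and 52.9, 684, 619.6 and 8336 CPM in UN_BFP. In each of the 3, UN_BFP 1 was lowest. il1b, an inflammatory cytokine, stood at 55.7, 419 and 373 CPM in CI_BFP and 0, 232, 104 and 764 CPM in UN_BFP, with the highest library in UN_BFP. itgae.1, an integrin of leukocytes, stood at 20.9, 312 and 102 CPM in CI_BFP and 0, 4.75, 0 and 41 CPM in UN_BFP. nfkbiab, the inhibitor that NF-kappa-B induces, stood at 1007, 3453 and 2239.9 CPM in CI_BFP and 449, 447, 341 and 1907 CPM in UN_BFP. For both, UN_BFP 4 was the highest UN_BFP library. In the interferon and complement list, 21 of 36 had a positive fold, and 16 without CI_BFP 2. STAT3, a signal transducer of cytokines, stood at 125, 98.7 and 176 CPM in CI_BFP and 1.83, 14.6, 0.76 and 129 CPM in UN_BFP. c1s.1, a complement protease, stood at 96, 10.5 and 35 CPM in CI_BFP and 0.136, 10.9, 8.66 and 5.23 CPM in UN_BFP. The groups overlapped for both. cfd, complement factor D, stood at 381, 9.85 and 161 CPM in CI_BFP and 638, 1493, 2247 and 95 CPM in UN_BFP. b2ml, a beta-2-microglobulin of antigen presentation, was the list's 1 gene wholly below, with narrow ranges of 530.2, 523 and 519.6 CPM in CI_BFP and 893, 1025, 747 and 755 CPM in UN_BFP. That was 2.78% of the list, where 1.94% of all genes lay so. cd74a and il1b were named after their values were seen.

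Lysosome genes followed the leukocyte genes across libraries. Of 76 genes, 64 had a positive fold, with a median of 1.02 and 0.95 relative to all genes (0.62 without UN_BFP 1 to 1.83 without UN_BFP 4). Wholly above lay 3 (3.95%) and wholly below 1 (1.32%), near the 3.07% and 1.94% of all genes. The list took 1.46, 2.36 and 3.53 percent of counts in CI_BFP and 0.522, 0.667, 0.802 and 2.74 percent in UN_BFP, overlapping through UN_BFP 4 alone. ATP6V1A (ENSDARG00000034534), a catalytic subunit of the proton pump that acidifies lysosomes, lay wholly above, at 163, 192 and 160.1 CPM in CI_BFP and 2.03, 0.097, 0 and 81.1 CPM in UN_BFP. Its second row, ATP6V1A (ENSDARG00000076318), lay wholly above too, at 82.3, 79.5 and 122 CPM in CI_BFP and 1.42, 0, 0 and 67.7 CPM in UN_BFP. PSAP, the saposin precursor, stood at 1249, 7509 and 3629 CPM in CI_BFP and 94.2, 549, 679 and 3387 CPM in UN_BFP (3.51-fold higher in the means, edgeR adjusted p = 0.798). GAA (ENSDARG00000090714), acid alpha-glucosidase, stood at 0.286, 21.1 and 4.66 CPM in CI_BFP and 0.136, 0, 0 and 0.349 CPM in UN_BFP. The groups overlapped for PSAP and GAA, through UN_BFP 4. scarb2a, a lysosomal membrane receptor, was the other gene wholly above, at 89.7, 78.5 and 71.8 CPM in CI_BFP and 20.4, 0, 14 and 67.4 CPM in UN_BFP. lamp1b, a lysosomal membrane glycoprotein, was the 1 wholly below, at 11.3, 12.6 and 1.47 CPM in CI_BFP and 26, 16.8, 29 and 15.8 CPM in UN_BFP.

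The actin and motility list had 5 of 57 members wholly above and 0 below, where 3.07% and 1.94% of all genes lay so. A positive fold was found for 35, and the median of the list was 0.29, 0.22 relative to all genes (-0.18 by voom). actr3, of the complex that branches actin filaments, stood at 111, 259 and 217 CPM in CI_BFP and 30.0, 78.5, 32.8 and 87.4 CPM in UN_BFP. ARPC2, of the same complex, stood at 286, 672 and 297 CPM in CI_BFP and 36.2, 193, 206 and 277 CPM in UN_BFP. ARPC5 (ENSDARG00000039142), actn4 and CAPZB were the other 3 wholly above. WDR1, an actin-disassembly factor, stood at 105, 107 and 182 CPM in CI_BFP and 7.19, 44.9, 0 and 117 CPM in UN_BFP, where UN_BFP 4 lay within CI_BFP. actb2, cytoplasmic actin and one of the most counted genes in both groups, stood at 28174, 54777 and 25208 CPM in CI_BFP and 9222, 8528, 8184 and 56289 CPM in UN_BFP. UN_BFP 4 was the highest library of actb2 and the other 3 UN_BFP libraries the lowest.

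Fibroblast and epicardium genes leaned lower as a list, but not in every marker. Of 43 genes, 30 had a negative fold, with a median of -0.97 and -1.04 relative to all genes (-1.57 to -0.53 over the settings). Of the 43, 3 lay wholly below and 1 above, where 1.94% and 3.07% of all genes did. The 1 above was CLDN5 (ENSDARG00000043716), which the endothelial list also holds. RBP4, a retinol carrier, stood at 84.7, 1292 and 217 CPM in CI_BFP and 12273, 1556, 5175 and 2597 CPM in UN_BFP, 10.2-fold lower in CI_BFP with no overlap (log2 -3.35, SE 3.50, edgeR adjusted p = 1). NOTCH3, a receptor of mural cells, stood at 0.858, 0 and 0 CPM in CI_BFP and 82.8, 0, 41.9 and 8.25 CPM in UN_BFP, with UN_BFP 2 at 0. TCF21, an epicardial factor, stood at 46.4, 2.22 and 19.4 CPM in CI_BFP and 181, 26.9, 40.0 and 71.3 CPM in UN_BFP, overlapping through CI_BFP 1. Of the 9 marker rows, TCF21, PDGFRA, DCN and WT1 had lower means in CI_BFP. The marker rows col1a1a, COL1A1, COL1A2, wt1b and ALDH1A2 had higher ones, with CI_BFP 1 the highest library of each. ALDH1A2 stood at 483, 0.53 and 43.6 CPM in CI_BFP and 91.9, 61.6, 58.6 and 77.4 CPM in UN_BFP.

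Matrix genes had 36 positive and 45 negative folds among 81, with a median of -0.20. Of the 81, 5 lay wholly below and 0 above, where 1.94% and 3.07% of all genes did. Of the 30 read in all 7 libraries, 2 lay wholly below, near the 6.24% of all genes so read. The median of the list was -0.94 with 26 positive folds without CI_BFP 1, 0.14 without CI_BFP 3, 0.12 without UN_BFP 1 and 0.31 with DESeq2, so the list had no direction that held. pcolcea, an enhancer of procollagen processing, stood at 108, 4.45 and 127 CPM in CI_BFP and 688, 244, 170.5 and 335 CPM in UN_BFP. COL6A3, a chain of collagen VI, stood at 64.9, 81.7 and 43.3 CPM in CI_BFP and 332, 136, 124 and 232 CPM in UN_BFP. fbln5, an elastic fibre protein, stood at 3.24, 0 and 10.7 CPM in CI_BFP and 107, 139, 83 and 13.6 CPM in UN_BFP. These 3 lay wholly below. Scar collagens did not part the groups. COL1A2, of collagen I, stood at 4072, 699 and 237 CPM in CI_BFP and 933, 462, 233 and 1169 CPM in UN_BFP. COL12A1 (ENSDARG00000078322), of collagen XII, stood at 334, 3.92 and 34.4 CPM in CI_BFP and 14.3, 11.8, 0.076 and 31.5 CPM in UN_BFP. POSTN (ENSDARG00000104267), periostin, stood at 425, 0 and 5.76 CPM in CI_BFP and 25.6, 0, 0.076 and 26.6 CPM in UN_BFP. CI_BFP 1 was the high library for all 3. LAMB2, a laminin chain of basement membrane, stood at 12.6, 0 and 3.92 CPM in CI_BFP and 24.1, 115, 0.152 and 105 CPM in UN_BFP. UN_BFP 2 and UN_BFP 4 were the high libraries of LAMB2. COL1A2 and POSTN (ENSDARG00000104267) were named after their values were seen.

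Growth factor and hypoxia genes had 50 negative folds among 78 and 8 genes wholly below, where 1.94% of all genes were, against 0 above (median -0.58, -0.65 relative to all genes, and -1.79 without CI_BFP 1). With DESeq2, 37 of the 78 folds were positive. Of the 21 genes with a count in all 7 libraries, 10 had a positive and 11 a negative fold (median -0.0090). Wholly below lay 3 of these 21, where 6.24% of all genes so read did. IGFBP5 (ENSDARG00000025348), a binding protein of insulin-like growth factors, stood at 8.87, 0 and 0 CPM in CI_BFP and 209.7, 155, 38.5 and 9.18 CPM in UN_BFP (34.9-fold lower in CI_BFP, edgeR adjusted p = 0.553). fgfr4, a fibroblast growth factor receptor, stood at 2.76, 0.212 and 0 CPM in CI_BFP and 184, 9.41, 40.9 and 23.8 CPM in UN_BFP. TGFBR2 (ENSDARG00000034541), a receptor of transforming growth factor beta, stood at 99.6, 7.73 and 23.7 CPM in CI_BFP and 244, 225, 114 and 131 CPM in UN_BFP. The BMP targets ID2 (96.6, 106 and 100.2 CPM in CI_BFP, 302, 197, 198 and 141 CPM in UN_BFP) and ID3 (139, 89.1 and 19.9 CPM in CI_BFP, 228, 282, 404 and 322 CPM in UN_BFP) lay wholly below as well. The other 3 of the 8 were SFRP1 (ENSDARG00000057678) and HEY2, described above, and vhl, the ubiquitin ligase subunit of the oxygen sensing pathway.

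Of 48 endothelial and endocardial genes, 22 had a positive fold, with a median of -0.12. This rested on single libraries, with 8 of 48 positive and a median of -1.06 without CI_BFP 1, and a median of 0.29 without CI_BFP 3. CLDN5 (ENSDARG00000043716), a tight junction claudin, lay wholly above, at 6.29, 23.1 and 10.0 CPM in CI_BFP and 0, 0, 0 and 3.25 CPM in UN_BFP. That was 2.08% of the list, where 3.07% of all genes lay so. robo4, a vascular guidance receptor, stood at 20.6, 95.2 and 3.43 CPM in CI_BFP and 0, 0, 0 and 4.3 CPM in UN_BFP. For robo4, CI_BFP 3 lay below UN_BFP 4. SELE (ENSDARG00000042138), a selectin that captures leukocytes, stood at 21.5, 84.6 and 116 CPM in CI_BFP and 0, 0, 0 and 23.7 CPM in UN_BFP. Among blood cell lists, 6 erythrocyte and 6 thrombocyte genes were read. CREG1, a secreted glycoprotein of that erythrocyte list that other cells also express, stood at 16.8, 43.3 and 15.7 CPM in CI_BFP and 2.64, 0, 0.076 and 9.88 CPM in UN_BFP, and hbaa1, an adult globin, at 0.191, 1.17 and 0 CPM in CI_BFP and 0, 3.88, 6.84 and 1.16 CPM in UN_BFP. THBS1 (ENSDARG00000010785), thrombospondin 1, stood at 0, 0.212 and 0.123 CPM in CI_BFP and 102, 73.6, 0.152 and 85.8 CPM in UN_BFP.

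Stress genes did not form 1 direction. Of 54 immediate early and heat shock genes, 24 had a positive fold (31 with DESeq2), and 2 lay wholly below, where 1.94% of all genes did. Of the 42 read in all 7 libraries, 2 lay wholly below, where 6.24% of all genes so read did. ZFP36L2, which promotes decay of messenger RNA, stood at 29.6, 40.9 and 2.82 CPM in CI_BFP and 111, 173, 143 and 105 CPM in UN_BFP. GADD45B (ENSDARG00000013576), a DNA damage-inducible gene, stood at 159, 181 and 58 CPM in CI_BFP and 712, 459.9, 534 and 338 CPM in UN_BFP. hsp70l, the inducible chaperone, was the opposite in its means but overlapped, at 26558, 10903 and 3361 CPM in CI_BFP and 947, 5696, 3703 and 6480.3 CPM in UN_BFP. hsp90aa1.1, a chaperone of myosin folding, stood at 188, 153 and 92.2 CPM in CI_BFP and 75.1, 40.8, 95.8 and 2221 CPM in UN_BFP, and its negative fold turned to 1.03 (log2) without UN_BFP 4. In the unfolded protein response, 20 of 38 genes had a positive fold, and 30 with DESeq2. Of the list, 5.26% lay wholly below and 2.63% wholly above, where 1.94% and 3.07% of all genes did. Of its 27 genes read in all 7 libraries, 2 lay wholly below, where 6.24% of all genes so read did. P4HB, protein disulfide isomerase, stood at 43.5, 8.69 and 35.3 CPM in CI_BFP and 99.3, 184, 86.3 and 48.8 CPM in UN_BFP, wholly below. DNAJB9 (ENSDARG00000052072), a cochaperone of the endoplasmic reticulum, stood at 11.6, 5.4 and 1.84 CPM in CI_BFP and 0, 0, 0 and 1.74 CPM in UN_BFP, wholly above, and HYOU1, another chaperone there, stood at 72.8, 18.9 and 224 CPM in CI_BFP and 22.3, 68.6, 8.21 and 42.3 CPM in UN_BFP. With genes unread in 1 group set at their bound, the median of cardiac transcription factors was -0.64 and that of the 6 erythrocyte genes -1.42, against -2.93 as fitted.

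Among abundant genes, a selection was made after the values were seen. It took genes with a mean of at least 200 CPM in the higher group, at least a 4-fold difference of means and no overlap. It held 4 above and 7 below. How many genes reached 200 CPM was not counted, so these counts have no share beside them. At any level and fold, 3.07% of all genes lay wholly above and 1.94% wholly below. Among those read in all 7 libraries, 2.46% and 6.24% did. The 7 below were HSPB1, MYC, RPS28, RPL35, RPS21, RBP4 and pcolcea. The 4 above included mknk1, RHBDF1 and grna.2. mknk1, a kinase of the translation factor eIF4E, stood at 225, 114 and 369.6 CPM in CI_BFP and 57.1, 21.8, 4.48 and 108 CPM in UN_BFP. RHBDF1 (ENSDARG00000036541), an inactive rhomboid that escorts the sheddase ADAM17, stood at 208, 218 and 193 CPM in CI_BFP, a narrow range, and 0, 48.9, 0 and 126 CPM in UN_BFP. grna.2 stood at 481, 393 and 201 CPM in CI_BFP and 0, 0, 16.3 and 112 CPM in UN_BFP. UN_BFP 4 was the highest UN_BFP library for each of these 3.

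Whether the injury effect differed between the gates was tested as an interaction, the BFP-gate effect minus the RFP-gate effect. The 2 effects share no library. No gene passed by edgeR (0 positive and 0 negative of 14853, with 434 positive or 2.92% and 1267 negative or 8.53% at an unadjusted p under 0.05), while voom called 0 and 2 (0.0135%) and DESeq2 163 (1.1%) and 541 (3.64%). In the RFP gate edgeR called 1 gene higher (0.00673%) and 3 lower (0.0202%), voom 463 (3.12%) and 0 and DESeq2 834 (5.62%) and 27 (0.182%), and the median fold of all genes there was 0.73. UN_RFP libraries detected between 1226 and 11057 genes.

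The named genes of the interaction had opposite folds in the gates or a fold near 0 in the RFP gate. They were chosen for the smallest interaction p, so unlike folds in the gates were set by the choice. SFRP1 (ENSDARG00000057678) had a log2 fold of -11.74 in the BFP gate and 8.64 in the RFP gate, where it was read in 6 of 12 CI_RFP and 0 of 6 UN_RFP libraries (edgeR interaction adjusted p = 0.253). OSR1 had -10.98 in the BFP gate and 7.08 in the RFP gate, read in 6 of 12 CI_RFP and 1 of 6 UN_RFP libraries. FSTL3, a follistatin-like antagonist of activin, had -9.83 in the BFP gate, where it was at 0 in CI_BFP and at 7.12, 43.1, 0 and 1.16 CPM in UN_BFP, and 9.96 in the RFP gate. FHL2 (ENSDARG00000003991) had -8.57 in the BFP gate and 3.21 in the RFP gate. Each of these folds is on the log2 scale and, where a group had no count, depends on the prior count of the fit.

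On the positive side, F2R (ENSDARG00000086236), a thrombin receptor, stood at 0.953, 15.4 and 2.08 CPM in CI_BFP and 0 in UN_BFP, and averaged 0.00607 ± 0.021 CPM over CI_RFP and 1.57 ± 3.84 CPM in UN_RFP (SD, n = 12 and 6). TESC (ENSDARG00000030839), tescalcin, a calcium-binding protein, stood at 9.72, 4.45 and 7.6 CPM in CI_BFP and 0 in UN_BFP, and averaged 0.0543 ± 0.188 CPM over CI_RFP and 5.42 ± 13.3 CPM in UN_RFP. tpk2 averaged 20.1 ± 24.1 CPM over CI_RFP and 18.5 ± 27.9 CPM in UN_RFP. si:dkey-108p14.4 stood at 0.286, 2.97 and 0.98 CPM in CI_BFP and 0 in UN_BFP. F2R, TESC and si:dkey-108p14.4 were each read in 1 of 12 CI_RFP and 1 of 6 UN_RFP libraries, so their RFP-gate folds rest on single tubes. All 8 interaction genes had an edgeR adjusted p of 0.253.

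Set side by side, list medians (log2 fold) differed between the gates in places. Extracellular matrix genes had -0.20 in the BFP gate and 2.33 in the RFP gate. Fibroblast and epicardium genes had -0.97 and 1.80, sarcomere genes -0.22 and 1.18, and growth factor and hypoxia genes -0.58 and 1.1 in the same order of gates. Leukocyte genes had 0.90 in the BFP gate and 0.13 in the RFP gate, and lysosome genes 1.02 and 0.57. Cell cycle genes had positive medians in both, 1.49 and 1.89. Ribosomal proteins had -1.25 in the BFP gate and -0.42 in the RFP gate. These medians are read against 0.07 and 0.73 for all genes in the BFP and the RFP gate, and the difference between lists was not tested.

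**Figure D5:**
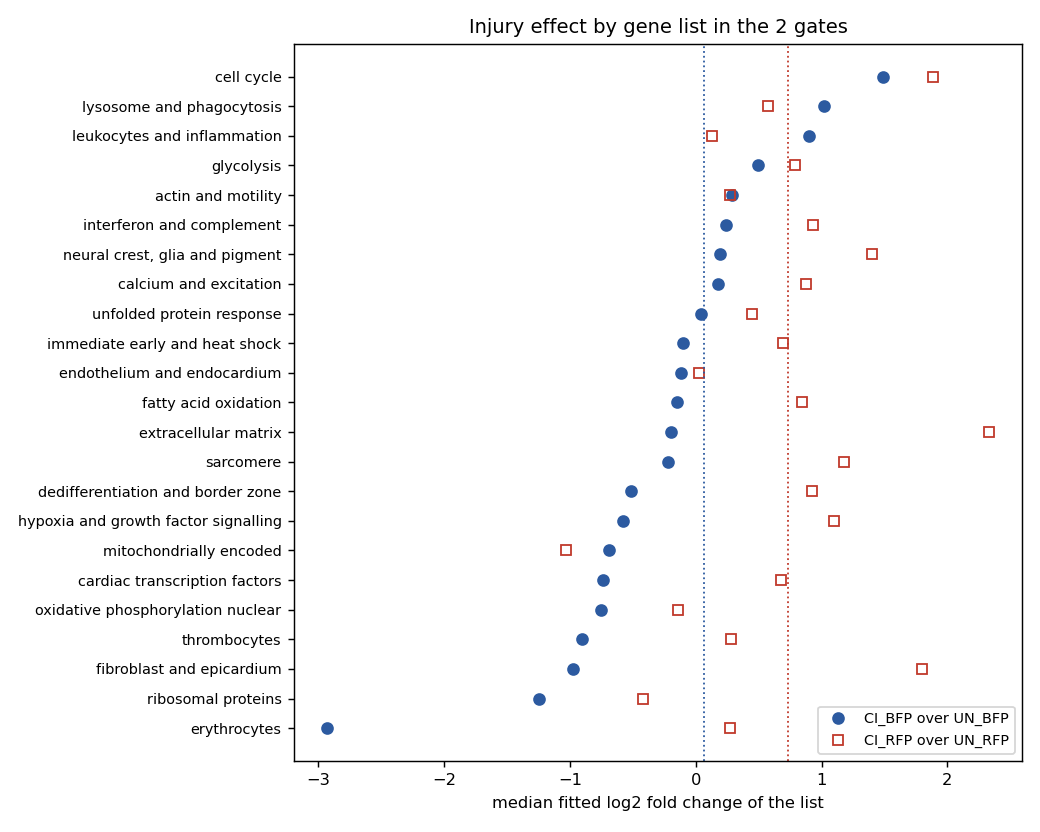
Median fitted log2 fold change of cryoinjured over uninjured libraries (horizontal axis) for 23 gene lists (rows), with filled blue circles for the BFP gate, open red squares for the RFP gate and dotted lines at the medians of all genes (0.07 and 0.73). Matrix genes are furthest to the right in the RFP gate (2.33) and lie at -0.20 in the BFP gate.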

How the data were processed

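Messenger RNA of pools of 20 sorted cells was amplified by Smart-seq2 per the labels. The deposited files hold read counts per Ensembl gene, 1 file a library, in whole numbers that the authors had not normalised. The submitters' processing notes name FastQC 0.11.5, HISAT2 2.1.0, featureCounts 1.6.0 and the build GRCz11. Counting settings, annotation and strand are not stated there, so reads of overlapping genes or near-identical copies may be shared, and rows that share a symbol are given with their ID. Of 31901 gene rows, 29178 could be named.

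All 25 libraries were fitted with 4 group means in edgeR 4.0.16 (R 4.3.3) with filterByExpr, TMM scaling and a robust quasi-likelihood test, two-sided, with Benjamini-Hochberg adjustment over 14853 genes at 0.05. SE is the log2 fold change divided by the square root of F and restates p. At-least folds set the empty group at 3 counts over its libraries combined, 0.107 CPM for CI_BFP and 0.0641 CPM for UN_BFP. They take no account of the spread between tubes. Alternatives were DESeq2 1.42.0, where an adjusted p of NA stayed NA, voom in limma 3.58.1, RLE scaling, no filter, at least 5 CPM in at least 3 libraries, the BFP-gate libraries alone and leaving out each library. Library measures were compared by exact permutation of 35 assignments. Tables and figures used Python 3.11.15 with numpy 2.4.6, pandas 2.3.3 and matplotlib 3.10.9. The fits were also run on simulated counts. That outcome is not given here, so how large a change the test could call is not stated.

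Replicate numbers follow accession order. Members and the 24 lists were chosen with earlier results of these data known. The genes named were the 12 of positive and 12 of negative fold with the smallest p that were read in at least 75% of the higher group's libraries, up to 3 of each list on the same terms, known heart genes, the 8 of highest mean in each group, and 4 of each sign for the interaction. Others are said to be chosen after their values were seen.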

Additional observations from a re-analysis of the deposited data

Results flagged for a closer look

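In the 4 UN_BFP libraries, 1 library stood apart from the other 3 by Dixon's criterion on log2(CPM + 1) for 5 of 85 genes named by the rule, where chance alone flags about 1 in 20. UN_BFP 4 was far above the others for actb2 (56289 CPM), nfkbiab (1907 CPM) and MYH6 (ENSDARG00000079564, 442 CPM). UN_BFP 3 was far below the others for THBS1 (ENSDARG00000010785, 0.152 CPM) and ASPH (ENSDARG00000078703, 0 CPM). The 3 CI_BFP libraries are too few for this criterion.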

How the results depend on the processing

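edgeR called 0 genes higher and 0 lower under its alternatives, while DESeq2 called 208 and 263 and voom 9 and 2. For the interaction, DESeq2 called 163 positive and 541 negative, voom 2 negative, the fit with no filter 2 negative, and leaving out 1 library 0 to 1 negative (1 without CI_BFP 1). TMMwsp scaling, leaving out the most counted row, and leaving out the 3 libraries of fewest genes were chosen after seeing the data. Over 110 named genes and 16 settings, 1643 of 1721 values kept their direction and side of the threshold, 32 came past it (27 with DESeq2, 5 with voom) and 46 in 14 genes turned. The cause was not tested. Many of these genes were chosen for a small p in these data, often with 1 group at 0, and edgeR had no call to lose. Leaving out the 3 libraries of fewest genes removed only RFP-gate libraries (UN_RFP 1, UN_RFP 5 and CI_RFP 5). The 1643 is therefore no measure of how firm the folds are.

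With 1 library left out, the difference in detected genes ran from -406 (without CI_BFP 1) to 2507 and that in the top 50 share from -3.56 (without CI_BFP 2) to 5.33, with -1.91 without UN_BFP 1. Log2 folds with 1 library left out ran from -2.47 to 1.03 for hsp90aa1.1, -10.76 to 5.68 for myh6 (ENSDARG00000090637), -2.02 to 9.44 for MITF (ENSDARG00000037833), -0.18 to 0.94 for malat1, -2.46 to 0.29 for MYH7, -1.54 to 0.76 for NKX2-5, -1.81 to 0.18 for mb, -3.56 to 8.14 for MYH6 (ENSDARG00000079564), -0.46 to 0.69 for blvrb, -0.57 to 0.29 for MT-CO1 and -2.29 to 0.63 for gata4. With DESeq2 and with RLE scaling, the fold was 0.13 for MT-CO3, 0.14 for MT-CYB, 0.15 for mb and 0.43 for blvrb, and for MYH6 (ENSDARG00000079564) 0.0087 with DESeq2 and 0.0085 with RLE. With voom it was 1.55 for MYH7, 0.15 for ITGB3 (ENSDARG00000045070), 3.79 for MYH6 (ENSDARG00000079564), 2.09 for blvrb, -0.016 for MT-CO1 and -0.54 for gata4. For MT-CO1 it was -0.031 in the BFP-gate libraries alone, -0.088 with TMMwsp, -0.029 with no filter and -0.056 without the most counted row, and for gata4 -0.029, -0.013, -0.022 and -0.030 under the same settings.

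The median of all folds was 0.54 with DESeq2 or RLE, 0.59 with voom, -0.14 with TMMwsp and -0.37 without CI_BFP 1, against 0.07. Upper quartile scaling could not be computed. No paired analysis was possible because the replicate numbers only follow accession order. With 20 cells a tube, a count of 0 does not show that a gene was silent.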
